A study of Mus musculus with 2 samples.

Results

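Ubd encodes FAT10, a ubiquitin-like protein, and is 1 of the 17139 genes listed in both tables of this series. It was chosen by its measured values in these libraries, where its level differed widely between PBS-treated and cGAMP-treated tumour endothelial cells (ECs), so the difference between the libraries is given as a description and no test of it was made. The ECs were sorted by FACS from Lewis lung carcinoma (LLC) tumours, a transplantable mouse lung carcinoma line grown under the skin of adult C57BL/6 mice. The PBS group was a tumour injected with phosphate-buffered saline and the cGAMP group a tumour injected with cGAMP, a cyclic dinucleotide that activates the innate immune adaptor STING. Each group was 1 mouse and 1 droplet-based single-cell RNA library, taken on the day after injection according to the methods, although the legend of a supplement gives an earlier time, and no allele or other agent was named for either group. Nothing here can therefore separate the treatment from the difference between the 2 mice or the 2 libraries.

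FAT10 is made of a tandem pair of ubiquitin-like domains and ends in a free diglycine, so that, unlike ubiquitin, it needs no processing before it is joined to other proteins. It is activated by the E1 enzyme UBA6 and passed on by the E2 enzyme USE1, the product of Ube2z, and proteins that carry it are degraded by the proteasome, a step that NUB1 speeds up. The gene lies in the major histocompatibility complex region and is known for strong induction by interferon-γ together with TNF, and for its expression in maturing dendritic cells and in several epithelia.

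Ubd (ENSMUSG00000035186.6) lies on the plus strand of chromosome 17 of GRCm38, from 37193892 to 37196095, with 2 exons and 162 codons in GENCODE vM21, and 0 other annotated genes overlap it. The last 24 coding bases, from the GENCODE vM21 transcript and at chr17:37195687-37195710, are shown because they encode the diglycine by which FAT10 is conjugated, and the capitals mark the glycine codons.
Ubd coding end: ctgacaacacactgcactGGGGGA
The 250 bases before the gene start are shown because the cells in which Ubd was found were compared below by their interferon and NF-kB target genes. They are from RefSeq on GRCm38.p6, chr17:37193642-37193891, plus strand, and the capitals mark the match to the NF-kB motif.
Ubd promoter: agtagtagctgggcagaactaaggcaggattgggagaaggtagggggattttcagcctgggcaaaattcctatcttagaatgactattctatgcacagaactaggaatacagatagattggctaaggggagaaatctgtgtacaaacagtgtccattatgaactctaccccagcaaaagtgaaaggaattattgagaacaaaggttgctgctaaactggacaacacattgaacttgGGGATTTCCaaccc
On either strand of this window there was 1 match to the NF-kB letters GGNNTTTCC, 14 to 6 bases before the gene start at chr17:37193878-37193886. There were 0 matches to the interferon regulatory factor letters GAAANNGAA and to the TATA letters TATAA. Over the 250 bases before the starts of 27025 genes, 5.62% held the NF-kB letters, 8.18% the interferon regulatory factor letters and 25.8% the TATA letters. The motif letters were shortened to 9 or fewer after this promoter had been read, so the match and the lack of matches are a description of these letters only.

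Ubd was at 20.7 CPM in PBS-treated ECs (1909 UMIs, 95% interval 19.8 to 21.7) and at 408 CPM in cGAMP-treated ECs (25877 UMIs, 403 to 413). CPM are the gene's UMIs summed over all ECs of a library per 1000000 UMIs of that library, and the intervals are exact Poisson intervals that cover counting error only. The log2 ratio of cGAMP over PBS was 4.30 (4.23 to 4.37), or 19.7-fold. Of the 9509 genes that reached 5 CPM in 1 library or both, 1.82% were at least 2-fold higher in the cGAMP library and 1.7% at least 2-fold lower, and the median log2 ratio was -0.08. Because the rule used this contrast, nothing is read from the place of Ubd among them.

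The libraries held 2517 PBS-treated and 1340 cGAMP-treated ECs, with 92081146 and 63366746 UMIs in all and medians of 29780 and 41178 UMIs and of 4.49% and 2.87% mitochondrial UMIs per cell. They shared 1 cell barcode. The endothelial markers Pecam1, Cdh5, Kdr, Tie1, Tek and Emcn summed to 3221 and 3263 CPM, and Ptprc, which marks leucocytes, was at 0.250 and 0.600 CPM. The 7 macrophage and monocyte markers summed to 15.2 and 31.2 CPM and the 4 neutrophil markers to 0.804 and 17.2 CPM, and none of either list was at 0. In ECs with a UMI of Pecam1 and Cdh5 and none of Ptprc, the log2 ratio of Ubd was 4.30 as well. Ptprc was so low that few cells could be left out for it, so the unchanged ratio is no check on other cell types.

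Ubd was unevenly spread among the cells of each library. In PBS-treated ECs, 150 cells had a Ubd UMI, with a median of 2.5 UMIs among them, 44 cells had 10 or more and the highest cell had 163. In cGAMP-treated ECs, 629 cells had a Ubd UMI, with a median of 12, 325 cells had 10 or more, 76 had 100 or more and the highest had 1044. Most ECs of both libraries thus gave no Ubd UMI at all, 2367 PBS-treated and 711 cGAMP-treated cells. In the PBS library 12 cells held 50% of all Ubd UMIs, and in the cGAMP library 52 cells did. Since a few cells carried so much of the sum in PBS-treated ECs, the ratio moved when they were left out. Without the 1% of cells with the most Ubd UMIs in each library, 25 and 13 cells, the log2 ratio was 5.80.

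**Figure D1:**
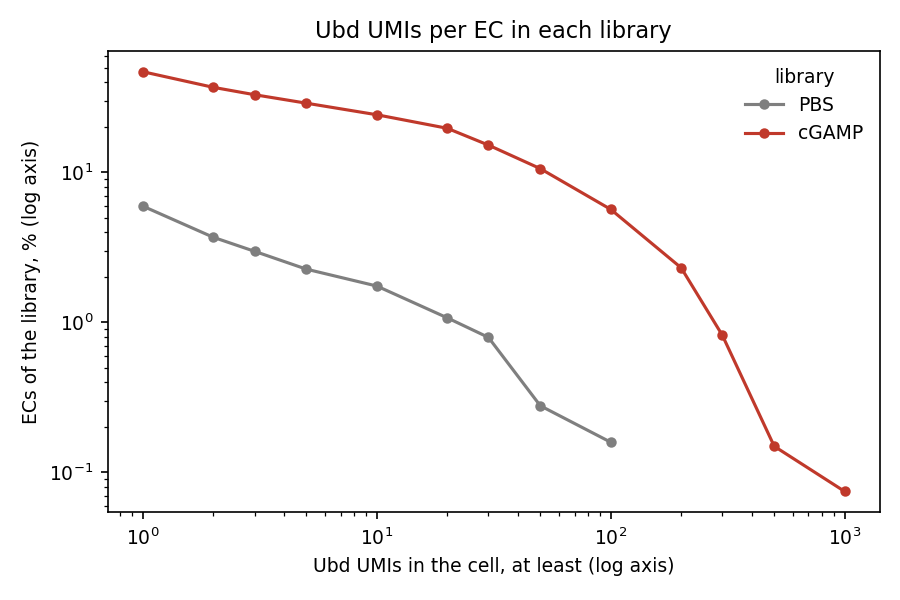
Percent of the ECs of each library (vertical, log axis) with at least the number of Ubd UMIs given (horizontal, log axis). The cGAMP line lies above the PBS line throughout, with 24.3% against 1.75% of ECs at 10 UMIs or more and 10.6% against 0.278% at 50 or more.

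To set the shares at equal depth, each cell was thinned to 5000 UMIs, and the shallower cells, 70 in the PBS and 13 in the cGAMP library, were left out. A Ubd UMI was then found in 63 of 2447 PBS-treated ECs, or 2.58% (Clopper-Pearson 95% interval 1.98 to 3.28), and in 386 of 1327 cGAMP-treated ECs, or 29.1% (26.7 to 31.6). Unthinned, the shares were 5.96% and 46.9%. Lyz2, a lysozyme gene of myeloid cells that ECs should lack, was taken as a reference for free RNA. It gave 2.17% (1.63 to 2.82) and 6.03% (4.81 to 7.45) in the same thinned cells and 13.5% and 38.4% unthinned. At 1 UMI, the Ubd share of PBS-treated ECs was therefore within counting error of the Lyz2 share, whereas that of cGAMP-treated ECs was above it. The Lyz2 share depends on the free RNA of Lyz2 alone, so it sets no background level for Ubd. With at least 2 UMIs in the thinned cell, Ubd was found in 1.55% (1.10 to 2.13) of PBS-treated and 21.8% (19.6 to 24.1) of cGAMP-treated ECs, and Lyz2 in 0.123% (0.0253 to 0.358) and 0.452% (0.166 to 0.982). With at least 2 UMIs, the Ubd share was thus above the Lyz2 share in both libraries. The part of free Ubd RNA in these shares was not tested. In thinned cells, the share with a UMI was 11.3-fold higher in the cGAMP library and the mean number of UMIs in cells with a UMI 1.55-fold higher, which multiply to 17.5-fold. This split depends on the depth. Unthinned, the shares were 5.96% and 46.9%, and Ubd was at 268 and 779 CPM within the cells with a UMI.

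Other transcripts with a large difference between the libraries were spread differently over the cGAMP-treated ECs. The 134 cells richest in Ubd, or the top 10% of that library, held 76.7% of its UMIs. The corresponding share was 87.3% for Ccl5, a chemokine that draws T cells, and 88.3% for Csf3, the granulocyte colony-stimulating factor. It was 55.1% for Cxcl9, an interferon-γ-induced chemokine, 46.0% for Serping1, the C1 inhibitor, and 31.7% for Irf7, the master regulator of type I interferon genes. Among these genes in the cGAMP library, Ubd lay between Ccl5 and Csf3, which were more concentrated, and Cxcl9, Serping1 and Irf7, which were less so. The genes differ in their numbers of UMIs, and the part of this in the spread was not tested. In the PBS library the top 1% of cells, 25 cells, held 71.9% of the Ubd UMIs. The share was 98.3% for Ccl5, 58.3% for Csf3, 49.0% for Cxcl9, 35.0% for Serping1 and 17.2% for Irf7. Csf3 was thus less concentrated than Ubd there.

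To describe Ubd by endothelial state, the ECs of both libraries were clustered on variable genes without Ubd and without genes that differed 2-fold or more between the libraries. The result was 8 clusters, of which 5 could be named from markers of the 4 endothelial classes (arterial, proliferative, stalk-like and tip-like). Ubd was highest in cluster 1, the stalk-like ECs led by the venular genes Ackr1 and Selp, in both libraries. There it was at 66.0 CPM (61.0 to 71.4) in 380 PBS-treated ECs and at 1056 CPM (1040 to 1073) in 330 cGAMP-treated ECs, a log2 ratio of 4.0 (3.89 to 4.12). Of the cGAMP-treated stalk-like ECs, 78.2% had a Ubd UMI, or 62.5% (57.0 to 67.8) after thinning, with a median of 15 UMIs over all of them. Of the PBS-treated stalk-like ECs, 11.8% had a UMI, or 8.40% (5.78 to 11.7) after thinning. Stalk-like ECs were 24.6% of the cGAMP-treated cells and held 57.7% of the Ubd UMIs, and were 15.1% of the PBS-treated cells and held 32.9%.

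Among the cGAMP-treated ECs, tip-like cluster 4, led by Gal and Chga, was next at 451 CPM (435 to 467) in 132 cells, of which a single cell held 1044 of the 3058 UMIs. Without that cell it was at 301 CPM (288 to 314). Cluster 5, unnamed and led by the DNA replication genes Ung and Hells, was at 346 CPM (333 to 359), or 307 CPM (295 to 319) without its richest cell, so that the order of clusters 4 and 5 is not set, and the proliferative cluster 2, led by the mitotic genes Ube2c and Cenpf, was at 265 CPM (256 to 275). A lower group followed, with 94.3 CPM (83.5 to 106) in tip-like cluster 6, led by Pgf and Ankrd1, 94.2 CPM (86.3 to 103) in the arterial cluster 3, led by Gja4 and Nts, and 85.3 CPM (80.3 to 90.6) in the unnamed cluster 0, led by Ramp3 and Igfbp3. The intervals of these 3 clusters overlapped, so that their order is not set. Ubd was lowest at 39.5 CPM (29.8 to 51.3), or 24.5 CPM without its richest cell, in the unnamed cluster 7, led by Igfbp5 and Ctsh, in which 14 of 14 stalk-like markers were raised although none was among its 10 leading genes. High Ubd therefore did not go with stalk-like markers in every cluster.

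In PBS-treated ECs the order was much the same. Cluster 5 at 26.6 CPM (23.3 to 30.2), tip-like cluster 4 at 23.0 CPM (20.7 to 25.4) and the proliferative cluster 2 at 22.9 CPM (21.0 to 24.9) followed the stalk-like ECs, with overlapping intervals. In each of these 3 clusters the 5 richest cells held most of the UMIs, 89.6% in cluster 5, 72.9% in cluster 4 and 75.2% in cluster 2, so the levels there rest on very few cells, and without its richest cell cluster 5 was at 13.4 CPM (11.2 to 16.1). Ubd was at 8.21 CPM (5.58 to 11.7) in tip-like cluster 6, or 1.35 CPM (0.439 to 3.16) without its richest cell, and at 4.99 CPM (4.08 to 6.05) in cluster 0. The arterial ECs gave 8 UMIs in 5 of 359 cells, or 0.919 CPM (0.397 to 1.81) and 0.462 CPM without the richest cell, and cluster 7 gave 1 UMI in 47 cells.

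Ubd was higher in the cGAMP library in all 8 clusters. The log2 ratio ran from 3.52 (2.98 to 4.11) in tip-like cluster 6, where 1 cell held 26 of the 31 PBS UMIs, and 3.54 (3.40 to 3.67) in the proliferative cluster to 4.30 (4.14 to 4.45) in tip-like cluster 4. It was 6.68 (5.69 to 7.90) in the arterial ECs, where the PBS library gave only 8 UMIs, and 5.38 (2.84 to 10.7) in cluster 7, where it gave 1. All ECs outside the stalk-like cluster gave 3.84 (3.76 to 3.93). The stalk-like ECs were 2.09 (1.95 to 2.23) higher on the log2 scale than all other ECs after PBS and 2.25 (2.21 to 2.28) higher after cGAMP. The size of this difference depended on how states were drawn, and it was 0.82 in the PBS library when genes that differed between the libraries were kept for clustering and 0.89 in the cGAMP library when the libraries were not integrated. In the latter case 15587 of the 25877 Ubd UMIs of the cGAMP library fell into a separate unnamed cluster, with 31 cells from the PBS and 372 from the cGAMP library, led by Lpl, Timp4 and Fabp4, which included 213 of the 330 stalk-like cells and in which Ubd was at 878 CPM. The stalk-like cluster of that setting was lower, at 711 CPM in the cGAMP library. A cluster held so largely by 1 library, as the unnamed one was, may be that library rather than a state.

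**Figure D2:**
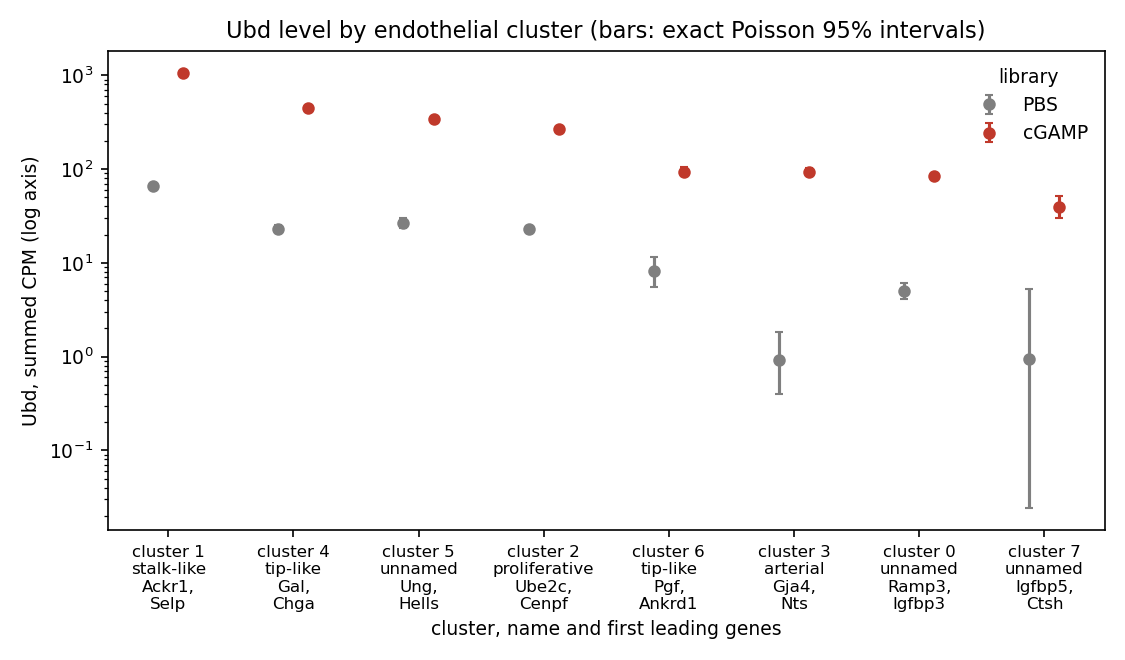
Ubd level in CPM (vertical, log axis) in each of the 8 clusters, ordered by the level in cGAMP-treated ECs, with exact Poisson 95% intervals that cover counting error only. The cGAMP points lie above the PBS points in every cluster, from 39.5 CPM in cluster 7 to 1056 CPM in the stalk-like cluster 1.

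Ubd was also described without clusters, by single markers in cells thinned to 5000 UMIs. Among cGAMP-treated ECs with a UMI of Selp, P-selectin, 47.4% (43.3 to 51.6) had a Ubd UMI, against 14.6% (12.1 to 17.3) of those without. The shares were 56.7% (51.4 to 62.0) and 19.0% (16.5 to 21.6) with and without a UMI of Ackr1, the atypical chemokine receptor of venules. For Gja4, a gap junction gene of arteries, they were 9.35% (4.57 to 16.5) and 30.8% (28.2 to 33.5), and for Pgf, placental growth factor, 16.6% (12.1 to 21.98) and 31.8% (29.0 to 34.6). Cells with Pgf were at 135 CPM (115 to 158) and cells without at 434 CPM (416 to 452), which differs from the high level of tip-like cluster 4. For Mki67, a marker of cycling cells, they were 27.9% (20.6 to 36.1) and 29.2% (26.7 to 31.9), which overlap. Ubd thus went with the venular markers and was rarer in cells with the arterial marker and with Pgf, and the shares with and without the cell cycle marker overlapped. The level in cGAMP-treated ECs was lower in cells with an Mki67 UMI, at 229 CPM (195 to 267) against 399 CPM (383 to 415) in those without. This was not so in PBS-treated ECs, at 27.8 CPM (21.75 to 35.0) with and 20.1 CPM (17.4 to 23.15) without, which overlap. In PBS-treated ECs, the shares were 5.41% (3.93 to 7.25) with and 1.26% (0.780 to 1.92) without Selp, and 1 of 261 cells with Gja4 had a Ubd UMI. The ratio of Ubd to other UMIs was not fixed among clusters of the cGAMP library, from 0.0393 to 17.8 Ubd UMIs per Selp UMI and from 0.0709 to 0.643 per Cxcl9 UMI.

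The cells rich in Ubd carried the endothelial markers as fully as the others. In the 325 cGAMP-treated ECs with 10 or more Ubd UMIs, the endothelial markers summed to 3270 CPM, against 3298 CPM in the 711 without one, and Ptprc was at 0.992 and 0.398 CPM. In the 44 such PBS-treated ECs, they summed to 3149 CPM against 3225 CPM in the 2367 without, and Ptprc was at 0.474 and 0.224 CPM. The 3 listed dendritic cell markers, nearly all of it Batf3, were at 29.3 CPM in the Ubd-rich and 12.2 CPM in the Ubd-negative cells of the cGAMP library and at 26.1 and 8.87 CPM in those of the PBS library, and Flt3 was not listed. The macrophage and monocyte markers were at 29.0 CPM in cGAMP-treated ECs without Ubd and at 34.2 CPM in those rich in it. The neutrophil markers were at 4.88, 51.25 and 9.26 CPM in cGAMP-treated ECs with no, 1 to 9 and 10 or more Ubd UMIs. In PBS-treated ECs they were at 0.730, 1.60 and 1.90 CPM. Cells rich in Ubd were also deeper, with medians of 51505 against 36256 UMIs per cell in the cGAMP library and 44547 against 29370 in the PBS library. The part of depth and of these markers in the spread of Ubd was not tested.

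Which genes went with Ubd was asked across the cells of each library, as Pearson's r of the deposited log values, over the 10025 genes in PBS-treated and the 10282 in cGAMP-treated ECs with a UMI in at least 10% of the cells. The cells share a library and a range of depths, and r of Ubd with the logarithm of a cell's UMIs was 0.039 in the PBS and 0.091 in the cGAMP library. Over all genes the median r was close to 0 in both, and 5 genes in PBS-treated and 86 in cGAMP-treated ECs had r of 0.3 or more. Cxcl9 was first and Gbp2, an interferon-induced guanylate-binding protein, second in both libraries. For Cxcl9, r was 0.48 over 2517 PBS-treated ECs and 0.57 over 1340 cGAMP-treated ECs. For Gbp2, it was 0.39 and 0.57. Spearman's rho was 0.25 and 0.58 for Cxcl9 and 0.20 and 0.51 for Gbp2, well below r in PBS-treated ECs.

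The 10 genes with the highest r in cGAMP-treated ECs were Cxcl9, Gbp2, Slco3a1, Gbp5, Iigp1, Igtp, Selp, Vcan, Cxcl10 and Gbp4, from 0.57 down to 0.44. In PBS-treated ECs they were Cxcl9, Gbp2, Gbp5, Cxcl10, Gbp4, Vcam1, Igtp, Iigp1, Ifi47 and Gbp3, from 0.48 down to 0.26, and by Spearman's rho 4 of these PBS genes and 8 of the cGAMP genes were again among the 10 highest. The lists shared 7 of 10 genes, which are guanylate-binding proteins and immunity-related GTPases (Gbp2, Gbp4, Gbp5, Igtp, Iigp1) and the chemokines Cxcl9 and Cxcl10 that bind CXCR3. The genes found only in the cGAMP list were Slco3a1, an organic anion transporter, Selp, and Vcan, the proteoglycan versican, with r of 0.17, 0.15 and 0.14 in PBS-treated ECs. Vcam1, the vascular cell adhesion molecule, was at 0.30 in PBS-treated and 0.27 in cGAMP-treated ECs. Of the 50 highest genes in each library, 25 were shared, or 50% of each list.

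Within stalk-like ECs of the cGAMP library alone, r with Ubd was 0.64 for Cxcl9 and 0.51 for Gbp2, but 0.12 for Selp and 0.24 for Vcan. Across the other ECs of that library it was 0.53 for Cxcl9, 0.50 for Gbp2, 0.30 for Selp and 0.39 for Vcan. Cxcl9 and Gbp2, which had been picked for their r, thus kept an r above 0.5 in both classes, while r for Selp was lower inside the stalk-like cluster. The type II interferon list described below includes Cxcl9 and Gbp2. Over its 16 measured genes, the median r in the cGAMP library was 0.30 within stalk-like ECs and 0.33 across the others. The promoters of 9 of the 13 genes in these lists were matched in RefSeq. The NF-kB letters found in the Ubd promoter were in 4 of them (Cxcl10, Cxcl9, Gbp5 and Selp), beside 5.62% over all genes. The interferon regulatory factor letters were in 6 (Cxcl10, Cxcl9, Gbp2, Gbp3, Gbp5 and Igtp), beside 8.18%. The TATA letters were in 3, beside 25.8%. The genes were picked by r and the letters were shortened after the Ubd promoter had been read, so these matches are a description only.

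**Figure D3:**
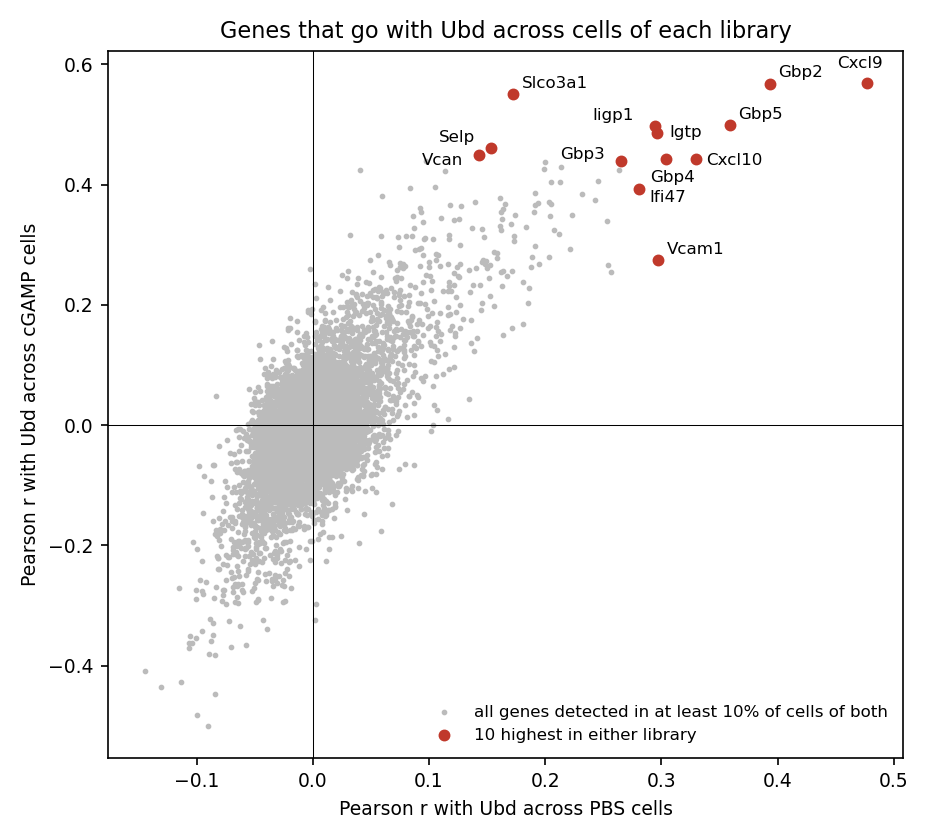
Pearson's r with Ubd across PBS-treated ECs (horizontal) and across cGAMP-treated ECs (vertical) for each of 9930 genes with a UMI in at least 10% of the cells of both libraries. The named points are the 10 highest genes of either library, with Cxcl9 at 0.48 and 0.57.

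The genes with the lowest r, are named here after their values were seen. In cGAMP-treated ECs they were Gpihbp1, which carries lipoprotein lipase on capillary endothelium, at -0.50, Igfbp3 at -0.48, Cdh13, T-cadherin, at -0.45, Cd81 at -0.44 and Sparc, a matrix protein, at -0.43. Their r in PBS-treated ECs lay between -0.13 and -0.08. In thinned cGAMP-treated ECs, 17.6% (15.2 to 20.2) of cells with a Gpihbp1 UMI and 55.3% (50.3 to 60.2) of cells without had a Ubd UMI.

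Ubd is a target of interferon-γ and of NF-kB, and its level was next set beside lists of genes known for these responses and for type I interferon. The score of a cell was the mean of its deposited log values over a list, without Ubd, and the cells of each library were divided into tertiles. By the type II interferon list, which holds Cxcl9, Irf1, the guanylate-binding proteins and others, Ubd was at 1.23, 4.002 and 57.1 CPM in the lower, middle and upper tertiles of PBS-treated ECs and at 13.3, 139 and 1028 CPM in those of cGAMP-treated ECs. The upper tertile held 91.3% of the Ubd UMIs of PBS-treated and 88.1% of those of cGAMP-treated ECs. By the NF-kB list, which holds Nfkbia, Tnfaip3, Icam1, Csf3 and others, the levels were 2.06, 5.20 and 50.9 CPM in PBS-treated and 55.6, 350 and 810 CPM in cGAMP-treated ECs, and the upper tertile held 88.2% and 64.5%. By the type I interferon list, which holds the Ifit and Oas genes and Isg15, they were 4.15, 8.996 and 47.6 CPM in PBS-treated and 133, 311 and 718 CPM in cGAMP-treated ECs, and the upper tertile held 78.4% and 65.4%. Ubd was thus higher in each higher tertile of every list in both libraries, with the steepest steps by the type II list. That list holds Cxcl9, Gbp2, Gbp3, Gbp4, Iigp1 and Igtp, which are among the genes named above for the highest r with Ubd. The NF-kB list holds Vcam1, also named there, and the type I list holds none of them. The steeper steps by the type II list are therefore not independent of those correlations.

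The lists are not independent of each other. Across cGAMP-treated ECs, the type I and type II scores had r of 0.66 with each other and the type II and NF-kB scores 0.37, and across PBS-treated ECs 0.73 and 0.27. The type II score had r of 0.46 with Ubd in PBS-treated and 0.64 in cGAMP-treated ECs, against 0.20 and 0.36 for NF-kB and 0.18 and 0.28 for type I. The median r of the 16 measured type II genes with Ubd in cGAMP-treated ECs was 0.38, against 0.17 for the 18 type I genes and 0.15 for the 18 NF-kB genes, and -0.01 over all genes.

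When the cells were divided by 2 scores at a time, Ubd differed by both the type II and the NF-kB score. In the upper type II tertile of cGAMP-treated ECs, Ubd was at 221 CPM (204 to 239) in the lower, 861 CPM (842 to 881) in the middle and 1380 CPM (1358 to 1402) in the upper NF-kB tertile. In the lower type II tertile, it was at 5.18 CPM (3.88 to 6.78), 12.6 CPM (10.0 to 15.5) and 35.6 CPM (29.98 to 42.0). The 219 cells that were in the upper tertile of both held 56.7% of the Ubd UMIs of the cGAMP library. In PBS-treated ECs, the 400 cells in the upper tertile of both were at 107 CPM (102 to 112) and held 85.1%, while those in the upper type II and middle NF-kB tertiles were at 7.35 CPM (5.77 to 9.23) and those in the lower type II and upper NF-kB tertiles at 0.977 CPM (0.359 to 2.13). Over these 9 fields of the PBS library, Ubd was above 10 CPM in that with both scores high and in no other. The type I score gave a like pattern with NF-kB, since the 294 PBS-treated ECs in the upper tertiles of both were at 115 CPM (109 to 122) and held 73.5% of the UMIs. In the upper NF-kB tertile of cGAMP-treated ECs, Ubd was at 280 CPM (266 to 295), 747 CPM (726 to 768) and 1154 CPM (1132 to 1177) by type I tertile.

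By type I score at a given type II score, Ubd was not higher with each tertile in cGAMP-treated ECs. In the upper type II tertile, Ubd was at 1015 CPM (962 to 1070) in the 36 cells of the lower, 1161 CPM (1129 to 1194) in the 101 of the middle and 996 CPM (981 to 1011) in the 309 of the upper type I tertile. In the middle type II tertile, it was at 217 CPM (203 to 230), 151 CPM (143 to 159) and 61.7 CPM (55.6 to 68.2), so that it was lower where the type I score was higher. In PBS-treated ECs of the upper type II tertile, Ubd was at 17.6 CPM (12.9 to 23.4), 34.9 CPM (30.6 to 39.6) and 69.4 CPM (65.9 to 73.1), higher with each type I tertile.

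The NF-kB score also went with the endothelial state. The list shares Icam1, Vcam1 and Sele with the stalk-like markers, whose part was not tested, and 4.47%, 21.5% and 48.0% of the cells of its lower, middle and upper tertiles were stalk-like in the cGAMP library. Within stalk-like cGAMP-treated ECs, divided again into tertiles, Ubd was at 879, 1060 and 1237 CPM by the NF-kB score and at 285, 839 and 1837 CPM by the type II score. Within the other cGAMP-treated ECs, it was at 30.5, 133 and 467 CPM by the NF-kB score and at 9.20, 47.1 and 587 CPM by the type II score. The order held in both classes, but the NF-kB steps were small in stalk-like ECs, where the upper tertile held 36.4% of the Ubd UMIs.

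**Figure D4:**
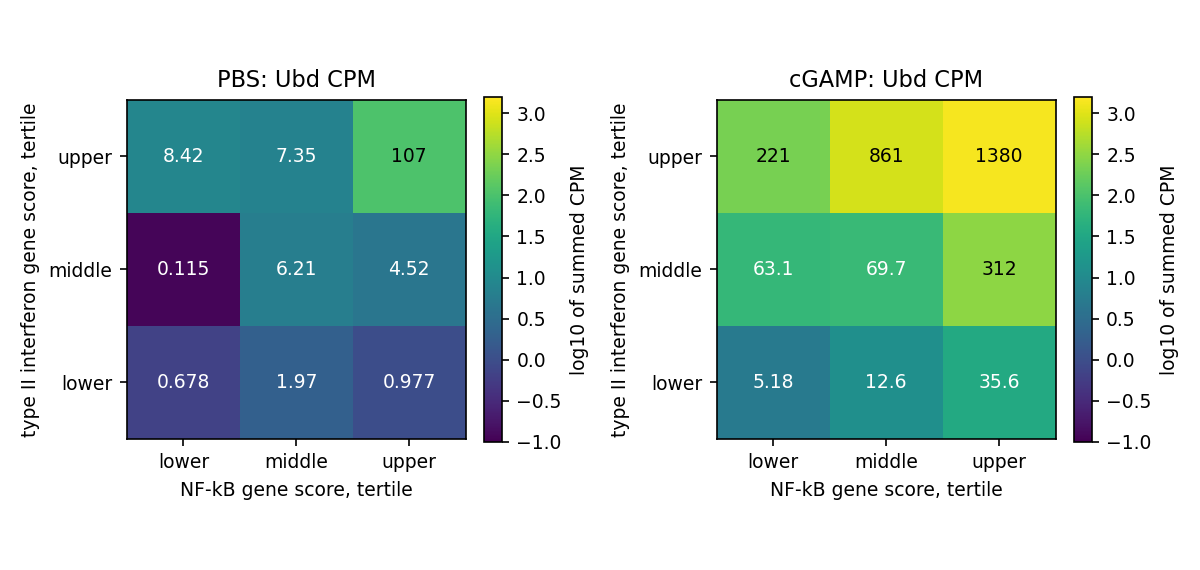
Ubd level in CPM (numbers, with colour on a log10 scale) in cells divided by the tertile of their NF-kB gene score (horizontal) and type II interferon gene score (vertical), in PBS-treated (left) and cGAMP-treated (right) ECs. The highest field of each library is the upper tertile of both scores, at 107 and 1380 CPM.

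The genes whose products carry, remove or receive FAT10 did not differ between the libraries as Ubd did. Of the 6 genes for its conjugation and turnover, 0 were 2-fold higher or lower, beside 1.82% and 1.7% over all genes, so that the count alone says nothing about them, and their median log2 ratio was -0.09, against -0.08 over all genes. Uba6, the E1 enzyme, was at 16.99 CPM in PBS-treated and 15.0 CPM in cGAMP-treated ECs, a log2 ratio of -0.18 (-0.30 to -0.06). Ube2z was at 47.9 and 40.2 CPM, at -0.25 (-0.32 to -0.18). Nub1 was at 28.6 and 28.8 CPM, at 0.01 (-0.08 to 0.09). Both enzymes of the pathway were thus slightly lower in CPM, although the interval of Uba6 held the median over all genes, -0.08. Nub1 was level within counting error, in the same libraries in which Ubd differed 19.7-fold. Psmd4, a proteasome subunit that binds ubiquitin-like proteins, was at 169 and 210 CPM, a log2 ratio of 0.32 (0.28 to 0.35). Sqstm1, the autophagy receptor p62, and Hdac6, which takes FAT10 to aggresomes, were at 0.20 and -0.35. Across cGAMP-treated ECs, r with Ubd was at most 0.09 for any of the 6, for Nub1, and the lowest was -0.04 for Uba6.

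Of the 6 genes for proteins known to bind or be modified by FAT10, 0 passed 2-fold in either direction, which is near the shares over all genes (1.82% and 1.7%). Their log2 ratios ran from -0.39 for Mad2l1, the spindle checkpoint protein MAD2, to 0.45 for Pcna, the replication clamp. Trp53, the tumour suppressor p53, was at 0.18 and Ddx58, the RNA sensor RIG-I, at 0.41.

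Among the other genes for ubiquitin and ubiquitin-like proteins, 1 of 19 was at least 2-fold higher in the cGAMP library and 0 were 2-fold lower, near the 1.82% and 1.7% over all genes, with a median log2 ratio of 0.10. That gene was Isg15, an antiviral modifier induced by type I interferon, at 247 CPM in PBS-treated and 814 CPM in cGAMP-treated ECs, a log2 ratio of 1.72 (1.70 to 1.75). The lowest was Map1lc3a, an autophagosome protein of the LC3 family, at -0.64 (-0.71 to -0.56). Sumo2 and Sumo3 were at 0.27 and 0.40, Nedd8 at 0.06 and Ufm1 at 0.12. Ubb, a polyubiquitin gene, was at 0.35. Isg15 and Ubd differed in their spread, since the top 10% of cGAMP-treated ECs held 40.1% of Isg15 and 76.7% of Ubd UMIs, and r between them was 0.24 in cGAMP-treated and 0.15 in PBS-treated ECs.

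Of the 4 genes of the ISG15 conjugation pathway, 2 were at least 2-fold higher, against 1.82% of all genes, the E2 enzyme gene Ube2l6 at a log2 ratio of 1.34 (1.25 to 1.43) and the deconjugating protease gene Usp18 at 1.33 (1.25 to 1.41). The E3 ligase gene Herc6 was at 0.85 and the E1 enzyme gene Uba7 at 0.42. All 4 had positive r with Ubd in cGAMP-treated ECs, from 0.14 to 0.26.

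The immunoproteasome, whose subunits interferon-γ exchanges for the constitutive ones, was the proteasome group nearest to Ubd. Psmb8 was at 244 CPM in PBS-treated and 621 CPM in cGAMP-treated ECs, a log2 ratio of 1.35 (1.32 to 1.37), and Psmb9 at 75.4 and 189 CPM, at 1.32 (1.28 to 1.37). Psmb10 and the activator genes Psme1 and Psme2 were at 0.93, 0.92 and 0.95, just under 2-fold. The constitutive subunit genes Psmb5, Psmb6 and Psmb7 were at 0.40, 0.44 and 0.44. Across cGAMP-treated ECs, the 5 immunoproteasome and activator genes had r with Ubd from 0.33 for Psme2 to 0.43 for Psmb8, and the 3 constitutive genes from -0.07 to 0.03. Across PBS-treated ECs, the ranges were 0.15 to 0.20 and -0.04 to 0.02. Cells with more Ubd thus had more of the immunoproteasome transcripts in both libraries, and not more of the constitutive ones.

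**Figure D5:**
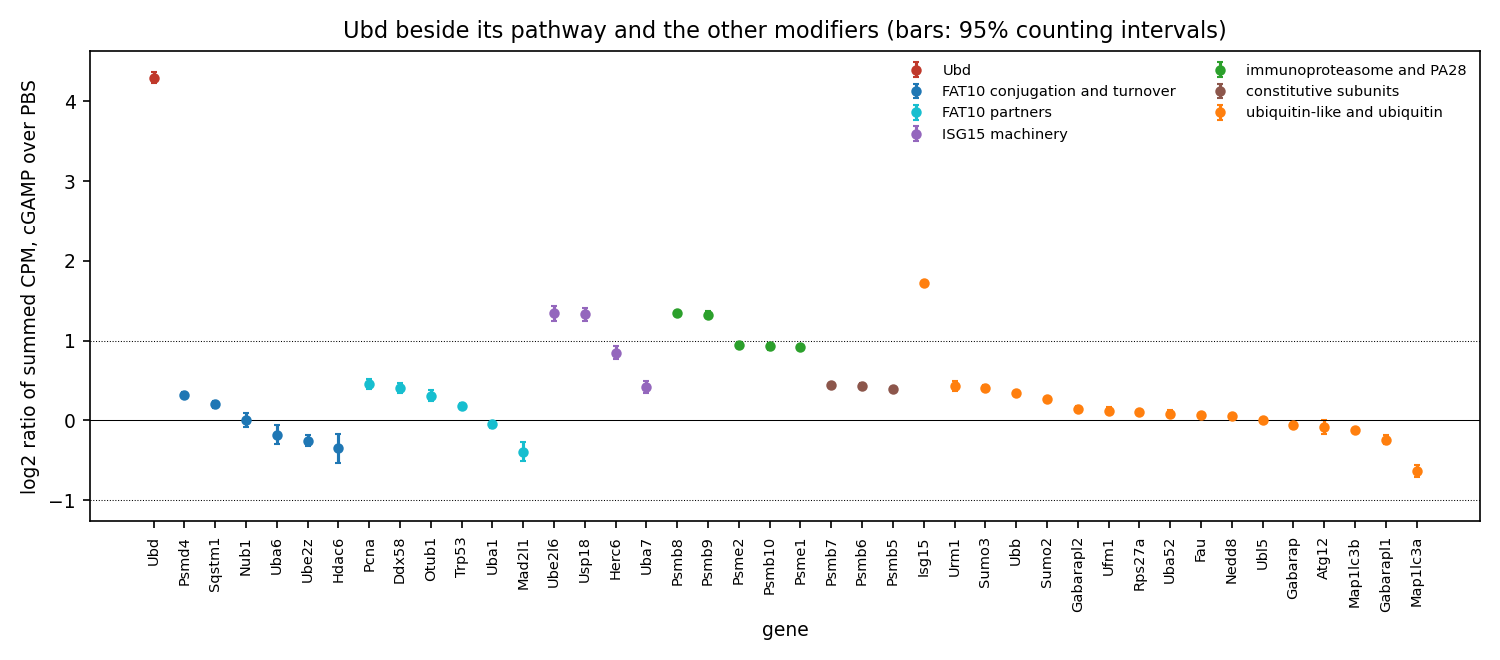
Log2 ratio of summed CPM, cGAMP over PBS (vertical), for Ubd and for genes of the FAT10 and ISG15 pathways, the proteasome and other ubiquitin-like proteins, with 95% counting intervals. Dotted lines mark 2-fold. Ubd stands at 4.30, Isg15 at 1.72 and the 6 FAT10 conjugation and turnover genes between -0.35 and 0.32.

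Among the receptors through which Ubd is known to be induced, 7 of 8 genes had at least 5 CPM and 0 of these passed 2-fold, near the shares over all genes of 1.82% higher and 1.7% lower. Tnfrsf1a, the main TNF receptor, was at 185 and 191 CPM, Ifngr1 at 117 and 113 CPM and Ifngr2 at 88.4 and 93.0 CPM in PBS-treated and cGAMP-treated ECs. The lowest log2 ratio was that of Ifnar1, a type I interferon receptor chain, at -0.72 (-0.79 to -0.64). Of the 12 transcription factor genes, 2 were at least 2-fold higher, Irf7 at 2.98 and Cebpb at 1.70, against 1.82% of all genes. Irf1 was at 0.73 (0.68 to 0.79), and the NF-kB subunit genes Rela and Nfkb1 were at -0.47 and -0.31. Irf1 had r with Ubd of 0.35 in cGAMP-treated ECs, and Il6st, the shared receptor chain gp130, had 0.40. Rela had -0.04.

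The genes next to Ubd on chromosome 17 gave almost no UMIs. The nearest 3 annotated protein-coding genes on each side are the olfactory receptor genes Olfr91, Olfr92 and Olfr93 before it and Olfr94, Olfr95 and Olfr96 after it. Of these only Olfr92 was listed, with 0 UMIs in PBS-treated and 6 in cGAMP-treated ECs. The distance from Ubd to Olfr94, on the minus strand, is 330 bases. Beyond the olfactory receptors, H2-M3, a non-classical class I gene, was at 29.0 and 55.1 CPM, and Gabbr1, a GABA receptor gene on the other side, at 17.4 and 11.4 CPM. These last genes were chosen after their values were seen.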

How the data were processed

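The authors aligned reads to mm10 with Cell Ranger 3.0.0, kept cells with at least 500 genes and at most 10% mitochondrial UMIs and genes found in at least 3 cells, removed clusters without Pecam1, and deposited values on the natural log scale, as the natural log of 1 plus the UMIs per 10000 UMIs of the cell (Seurat 3.1.1). The labels name another version of the library kit than the methods. UMIs were recovered by undoing the logarithm and dividing each cell's values by their smallest step, which gave whole numbers within 0.01 for 100% of the values. Doublets were not removed here. The per-million scale (CPM) was computed here from summed UMIs. With 1 library per group no test was made. Shares have Clopper-Pearson and levels exact Poisson 95% intervals, for counting error only, and the interval of a log2 ratio is the exact conditional binomial one.

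Clustering used Seurat 5.3.0 (R 4.3.3), with 2500 variable genes, of which 1794 that differed under 2-fold were used, integration anchors, 30 principal components, and a resolution of 0.5. A cluster was named from at least 3 raised markers of a list, with 1 or more of them among its 10 leading genes and no more of another list, a rule set with the clusters known. The other computations used Python 3.11.15, numpy 2.4.6, scipy 1.17.1 and matplotlib 3.10.9, and the recovery of UMIs, levels and correlations was tested on simulated data.

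Ubd, the gene lists and the promoter motifs were chosen with earlier results of these data known, and the motifs were shortened after the Ubd promoter had been read. Named genes were Ubd, the genes of the pathway, receptor, factor and marker lists, the 10 genes with the highest r per library, the nearest 3 protein-coding genes on each side, and Cxcl9, Ccl5, Csf3, Irf7 and Serping1. Amino acid sequences were not used here, and some members of the lists are not reported here by name.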

Additional observations from a re-analysis of the deposited data

How the results depend on the processing

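Ubd was higher in the cGAMP library, and in stalk-like ECs than in all other ECs together, under every alternative that was run. Most values moved (78 of 98), and the cause was not tested. For levels, ratios and shares, moved means by more than their counting error, a measure not used for overlaps of gene lists and counts of genes. No paired analysis was possible because each group holds 1 sample. The log2 ratio of Ubd, 4.30, was 4.14 as the mean of per-cell CPM, 4.38 with median-of-ratios size factors, 4.07 with class proportions held at the average, 4.11 in cells with at most 5% mitochondrial UMIs, 5.80 without the 1% of cells richest in Ubd and 4.71 without the 5 richest cells, the last chosen after seeing the data. The share with a Ubd UMI in PBS-treated and cGAMP-treated ECs was 1.76% and 21.3% thinned to 2000 UMIs, 4.03% and 35.4% thinned to 10000, 1.55% and 21.8% with at least 2 UMIs and 5.96% and 46.9% unthinned.

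For stalk-like over other ECs, the log2 ratio was 1.51 (PBS) and 2.11 (cGAMP) at resolution 0.3, 1.78 and 2.55 at resolution 1.2, 1.51 and 0.89 without integration, 0.82 and 1.54 with all variable genes but Ubd, and 2.51 and 2.58 without the 5 richest cells. By marker ranks it was 2.40 in the cGAMP library. In the same order of settings, the ratio of cGAMP over PBS was 4.31, 4.32, 3.76, 4.66 and 4.28 in stalk-like ECs and 3.71, 3.54, 4.37, 3.94 and 4.21 in other ECs, and by marker ranks 3.79 and 3.52.

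The share of Ubd UMIs in the upper tertile by type I, type II and NF-kB scores moved in the PBS library to 74.3% (type I) and 85.7% (NF-kB) with thinned scores, to 92.9% (type II) with z-scores, to 81.4%, 80.6% and 74.8% within stalk-like ECs, and for type I and type II to 82.8% and 92.5% within other ECs. In the cGAMP library it moved to 61.5%, 82.3% and 57.1% with thinned scores, to 85.7% (type II) and 67.5% (NF-kB) with z-scores, to 58.3%, 64.3% and 36.4% within stalk-like ECs and to 66.7%, 91.7% and 74.5% within other ECs. Of the 10 genes most like Ubd in PBS-treated ECs, 4 were kept by Spearman's rho and 6 within stalk-like ECs, where 6 were also kept in the cGAMP library. Genes at least 2-fold higher were 676 with no minimum and 103 at 20 CPM or more, against 173, and those 2-fold lower were 771 and 78, against 162. The count over the FAT10 pathway and ubiquitin-like genes was 1 in each.

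Cluster levels without the richest cell of each cluster, also chosen after seeing the data, stand beside only some of the levels in the report. Among the rest, the stalk-like cluster 1 was at 53.25 CPM in the PBS and 1033 CPM in the cGAMP library. The proliferative cluster 2 was at 15.8 and 220 CPM and cluster 0 at 3.60 and 70.4 CPM. Cluster 4 was at 17.8 CPM and cluster 7 at 0 CPM in the PBS library. Clusters 3 and 6 were at 76.5 and 77.9 CPM in the cGAMP library. The limits are 1 mouse and 1 library per group, different depths per cell, and few Ubd-rich cells in the PBS library.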
